A study of Mus musculus with 3 samples.

Results

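The collagen prolyl and lysyl hydroxylases are the enzymes of the endoplasmic reticulum that hydroxylate procollagen before it folds into its triple helix. Expression of 10 genes was followed: the alpha subunits of prolyl 4-hydroxylase (P4ha1, P4ha2 and P4ha3) with their beta subunit P4hb, the prolyl 3-hydroxylases (P3h1, P3h2 and P3h3) and the lysyl hydroxylases (Plod1, Plod2 and Plod3). They were chosen by name, as listed ascorbate-dependent collagen hydroxylases with the partner protein P4hb, and were found by Ensembl identifier among 29267 genes, of which 17810 had a count in at least 1 library.

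Expression was read by RNA-seq in 3 libraries, 1 for each sample. The mouse embryonic fibroblasts (MEFs), the cells from which reprogramming to pluripotency starts, were of 2 strains: OG2, whose Oct4-GFP transgene lights up in pluripotent cells, and ICR. Both were used at passages 3 to 5. The embryonic stem cells (ESCs) were of the R1 line, labelled naive, at passage 30. No treatment is named in the labels of these libraries, and the difference between the MEF samples is at once one of strain and one of sample.

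Hydroxylation by these enzymes needs iron, 2-oxoglutarate, oxygen and ascorbate (vitamin C), and it is the classical reason why lack of vitamin C damages connective tissue. Hydroxyproline made by prolyl 4-hydroxylase keeps the collagen triple helix stable at body temperature, and an alpha subunit is active only as a tetramer with P4hb, a protein disulfide isomerase that also folds other secreted proteins. Prolyl 3-hydroxylases modify few sites, with P3h1 acting in a complex with Crtap and the cyclophilin Ppib. Hydroxylysine made by the lysyl hydroxylases carries the sugars of collagen and enters the cross-links between collagen molecules. Fibroblasts make and export fibrillar collagen in bulk.

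The prolyl 4-hydroxylase subunits must be made together for an active enzyme, so the 250 bases before the RefSeq start of each of these genes are shown to set the sequence before their starts beside their levels. Capitals mark ACGTG and GCGTG on either strand (read as CACGT and CACGC on the reverse), the core letters of hypoxia response elements, through which P4ha1, P4ha2 and other genes are known to respond to low oxygen. Sequences are from RefSeq on GRCm38.p6 and run 5′ to 3′ on the strand of the gene.
P4ha1, chr10:59323046-59323295, plus strand: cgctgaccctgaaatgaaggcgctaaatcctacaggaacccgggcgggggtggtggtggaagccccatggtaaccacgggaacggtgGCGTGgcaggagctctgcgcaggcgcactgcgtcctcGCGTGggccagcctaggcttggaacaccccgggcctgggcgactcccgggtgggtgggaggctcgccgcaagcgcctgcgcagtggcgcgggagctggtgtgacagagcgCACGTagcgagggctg
P4ha2, chr11:54100674-54100923, plus strand: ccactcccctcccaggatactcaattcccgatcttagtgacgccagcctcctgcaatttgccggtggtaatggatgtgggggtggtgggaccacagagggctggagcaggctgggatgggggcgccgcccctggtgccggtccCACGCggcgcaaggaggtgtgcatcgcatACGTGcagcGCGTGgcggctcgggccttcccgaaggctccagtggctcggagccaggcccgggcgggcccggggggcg
P4ha3, chr7:100285270-100285519, plus strand: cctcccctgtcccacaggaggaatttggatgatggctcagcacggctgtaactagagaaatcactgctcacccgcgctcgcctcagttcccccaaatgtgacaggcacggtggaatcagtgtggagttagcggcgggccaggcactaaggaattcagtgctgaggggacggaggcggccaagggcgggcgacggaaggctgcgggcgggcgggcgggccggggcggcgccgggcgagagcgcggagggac
P4hb, chr11:120573254-120573503, minus strand: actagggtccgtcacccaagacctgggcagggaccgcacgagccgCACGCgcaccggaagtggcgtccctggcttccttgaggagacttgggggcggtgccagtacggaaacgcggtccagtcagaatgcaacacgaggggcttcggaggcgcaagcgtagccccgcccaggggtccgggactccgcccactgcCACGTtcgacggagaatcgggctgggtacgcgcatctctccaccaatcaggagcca
The window of P4ha1 held 1 ACGTG and 2 GCGTG, that of P4ha2 the same numbers, and that of P4hb 1 of each. The P4ha2 window lies downstream of the earliest start that GENCODE gives this gene, and none of the 4 windows overlaps an annotated exon. The window of P4ha3 held neither motif, which says only that these letters are not in it. A RefSeq window was at hand for 8 of the 10 genes, and 7 of their 9 windows held either motif, against 38.6% of 32851 windows of the same kind over the genome. Taken apart, ACGTG was in 5 of the 9 windows (16.6% of all) and GCGTG in 6 of 9 (28.2% of all). P3h1 gave 2 of the 9 windows, and the windows of P3h1, Plod3 and P3h3 overlap annotated exons. Both motifs hold the letters CG, the 9 windows had 54.8% to 70% GC, and the shares over the genome were not matched for GC content. Whether the motifs are in excess was not tested. A match of 5 letters is a description of the sequence, and no binding was measured.

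The OG2, ICR and ESC libraries held 5149312, 4590619 and 1717838 gene counts, so that 3 counts corresponded to 0.583, 0.654 and 1.75 counts in each 1000000 (CPM) before scaling. Levels are given as CPM after TMM scaling (edgeR), and differences as log2(CPM + 1), ESC minus the average of the MEF pair, a scale that understates changes of genes with few counts. All 10 fibroblast markers were present in every library and were called lower by edgeR in the library labelled ESC, with a summed level of 26050 and 26248 CPM in OG2 and ICR MEFs and 3938 CPM in ESC. Over all genes tested, 31.4% were called higher and 36.0% lower. Of 10 pluripotency markers, 5 were tested, and of these 4 were called higher and 1 lower. The sum over the 10 was 12.6, 19.9 and 120 CPM in the same order. Zfp42, Esrrb, Dppa5a and Utf1 had no count in the library labelled ESC, for which reason it is named by its label. Markers of epithelial cells summed to 8.52, 13.9 and 450 CPM (3 of 8 tested, 3 called higher, with Krt5 and Cldn4 at 0 in ESC). Krt14 (297 CPM) and Krt8 (127 CPM) made up most of the ESC sum. Those of endothelial cells summed to 11.5, 11.2 and 81 CPM (3 of 4 tested, 2 called higher and 1 lower, with Cdh5 and Kdr at 0 in ESC). Pecam1 alone had 64.5 CPM in ESC. Those of leukocytes summed to 24.5, 11 and 14.3 CPM (3 of 4 tested, 0 called, with Ptprc and Adgre1 at 0 in ESC). The part of these cells in the results was not tested. In bulk samples, fewer cells of a type and less RNA per cell cannot be told apart.

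The collagen hydroxylases moved unevenly in the library labelled ESC, from a 25.7-fold fall of Plod2 to nearly equal levels of Plod3. By the quasi-likelihood test of edgeR, adjusted after Benjamini-Hochberg, 6 of the 10 genes were called lower (P4ha2, P4ha3, P4hb, P3h1, Plod1 and Plod2), against 36.0% of the 12663 genes tested. None was called higher, against 31.4% of the genes tested, and none was higher at an unadjusted p under 0.05 or by DESeq2. The other 4 genes (P4ha1, P3h2, P3h3 and Plod3) did not pass the test. At least 1 log2 unit below both MEF samples lay 5 of the 10 (P4ha2, P4ha3, P4hb, P3h1 and Plod2), against 25.9% of the 17810 genes. The median difference of the 10 genes was -1.03 (range -4.68 to 0.24), and that of all genes tested was -0.41. The test has 1 residual degree of freedom, its spread comes from the MEF pair alone, and ESC is assumed to vary in the same way. The labels name no replicate cultures within a strain or line, so the p-values measure only the spread between these samples, strain included. All 10 genes had counts in every library and passed the filter on low counts.

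**Figure D1:**
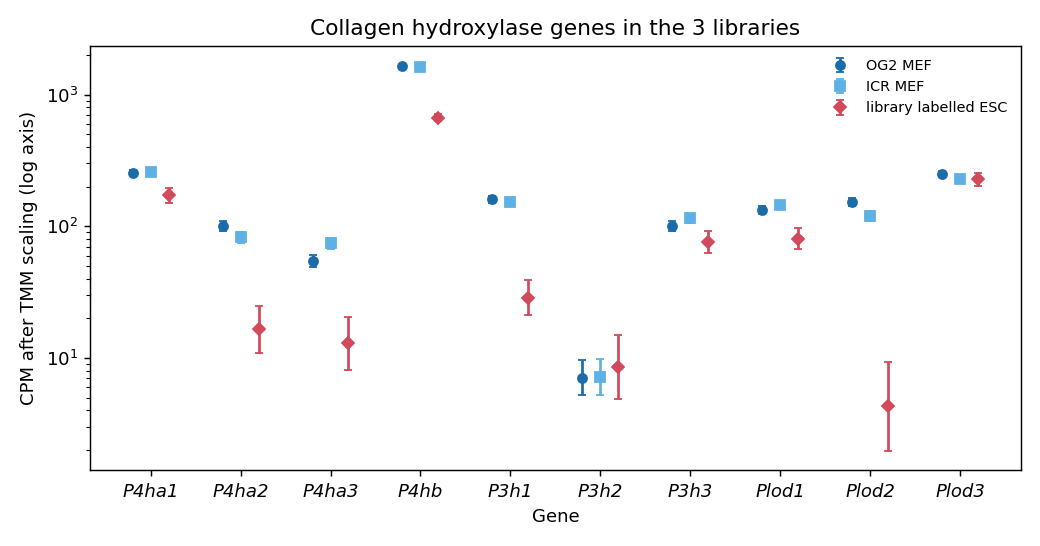
Level of each gene in the 3 libraries, as CPM after TMM scaling on a log axis, with 95% Wilson intervals of the counts as error bars. Plod2 lies at 153 and 120 CPM in the MEF libraries and at 4.3 CPM in the library labelled ESC, while Plod3 lies at 250, 227 and 227 CPM.

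Among the alpha subunits, which hold the catalytic site of prolyl 4-hydroxylase, P4ha1 is the most widely used. P4ha1 (chromosome 10, 59323296 to 59373304, GRCm38, plus strand) had 1423 counts in OG2 MEFs, 1328 in those of ICR and 240 in the library labelled ESC, or 253, 257 and 172 CPM. Its log2 level was 8.0 ± 0.017 (SD, n = 2) in MEFs and 7.44 in ESC, a difference of -0.56, with an adjusted p of 0.0724 by edgeR. ESC was below both MEF samples by more than counting error, but the gene was not called. The ESC to OG2 ratio was 0.681 (95% interval 0.592 to 0.782). That interval holds the scaling between libraries fixed, and the log2 difference ranged from -2.09 to 0.15 over the processing alternatives.

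P4ha2, the second alpha subunit (chromosome 11, 54100095 to 54131665, plus strand), had 569, 427 and 23 counts in the OG2, ICR and ESC libraries, or 101, 82.6 and 16.5 CPM. It was downregulated 5.28-fold on the log2(CPM + 1) scale, from 6.53 ± 0.20 (SD, n = 2) to 4.13, with an edgeR adjusted p of 6.76e-05. P4ha3, the third alpha subunit (chromosome 7, 100285520 to 100319699, plus strand), had 307, 383 and 18 counts, or 54.5, 74.1 and 12.9 CPM. It fell 4.64-fold, from 6.01 ± 0.31 (SD, n = 2) to 3.80, with an edgeR adjusted p of 0.000398. For both genes the library labelled ESC lay well below the pair of MEF values, which themselves differed in opposite directions between the strains.

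The make-up of the alpha subunits differed between the libraries. P4ha1 took 61.9% (95% Wilson interval 59.9 to 63.9) of the alpha subunit counts in OG2 MEFs, 62.1% (60 to 64.1) in those of ICR and 85.4% (80.8 to 89.1) in the library labelled ESC. P4ha2 took 24.7%, 20% and 8.19%, and P4ha3 13.4%, 17.9% and 6.41%. Per length, as the shares of deposited TPM (transcripts in each 1000000, a unit that divides counts by transcript length), P4ha1 had 53.9%, 52.8% and 82.5%. The share of P4ha1 was higher in ESC than in either MEF sample by both measures. These intervals, and all others given, cover counting error only. They are too narrow where reads were copied by PCR, since such reads are not independent molecules.

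**Figure D2:**
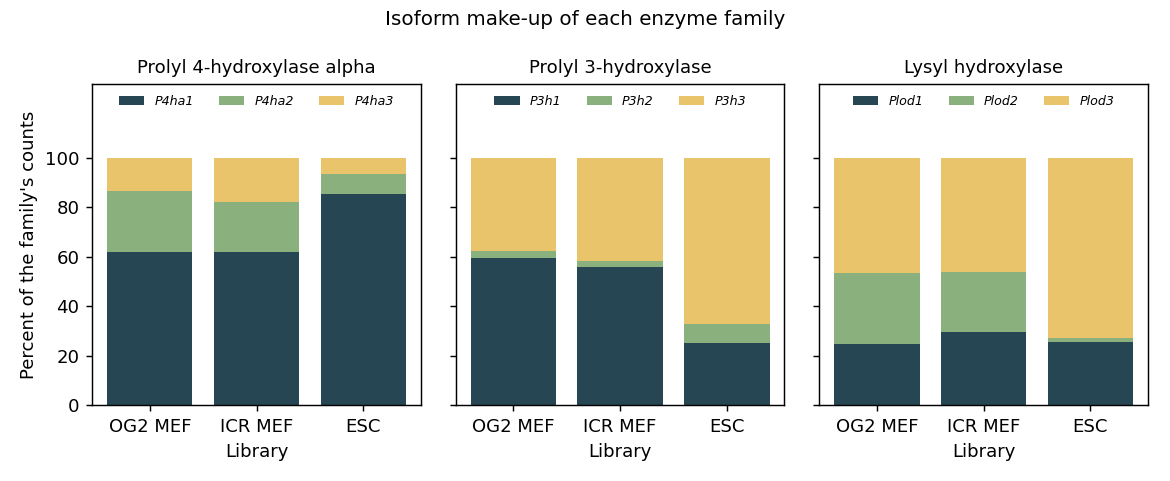
Share of each gene in the counts of its enzyme family, in percent, stacked to 100 for each library. In the library labelled ESC the share of P4ha1 is 85.4%, that of P3h3 67.1% and that of Plod3 72.9%, while Plod2 is down to 1.38%.

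P4hb (chromosome 11, 120560298 to 120573253, minus strand), the beta subunit that holds the alpha subunits soluble and in the endoplasmic reticulum, was by far the most abundant of the 10 genes. It had 9214 counts in OG2 MEFs, 8329 in those of ICR and 933 in the library labelled ESC, or 1635, 1611 and 669 CPM. P4hb fell 2.42-fold, from 10.67 ± 0.015 (SD, n = 2) to 9.39 on the log2 scale, with an edgeR adjusted p of 0.000809. In deposited TPM the same gene stood at 1221, 1288 and 1142, a log2 difference of only -0.13.

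The CPM and TPM of P4hb parted with the transcript length by which TPM is divided. The length the authors' RSEM run assigned to P4hb, a mean over its transcripts weighted by their abundance, was 2861 bases in both MEF libraries and 558 bases in the library labelled ESC. The annotation holds 3 P4hb transcripts: a protein-coding one of 2861 bases and 11 exons (ENSMUST00000026122), a protein-coding one of 770 bases and 4 exons (ENSMUST00000168360), and a processed transcript of 414 bases whose 2 exons lie within exon 11 of the longest (ENSMUST00000166620). A mean of 558 bases allows at most 5.89% of the P4hb transcripts, and at most 38.6% of its reads, to be assigned to the full-length transcript in the library labelled ESC, against up to 100% in either MEF library. Which transcripts were present cannot be read from gene-level values, and the position of the reads along the gene was not analysed here.

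The ratio of P4hb to its alpha subunits turned on the same length. By deposited TPM, P4hb exceeded the sum of the alpha subunits by 3.76 in OG2 MEFs, 3.63 in those of ICR and 18.5 in the library labelled ESC. With the ESC value of each gene divided by the mean MEF effective length of that gene instead, the ESC ratio was 3.4. By counts with no length scaling the ratios were 4.01, 3.9 and 3.32. The higher ratio in ESC was thus present in the deposited TPM and absent from both other measures.

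A gene length in ESC at most 0.5 of that in each MEF library was found for 2 of the 10 genes, P4hb and P3h1, against 6.94% of 9111 genes with several transcripts and a count in every library. P3h1 went from 2988 and 2915 bases in OG2 and ICR MEFs to 967 in ESC. Plod2 went from 3595 and 3486 bases to 1823, just outside this limit against both. Plod3 went the other way, from 2489 and 2305 to 3230 bases. The lengths of P4ha2, P4ha3, P3h3 and Plod1 stayed between 2027 and 3243 bases in all libraries.

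**Figure D3:**
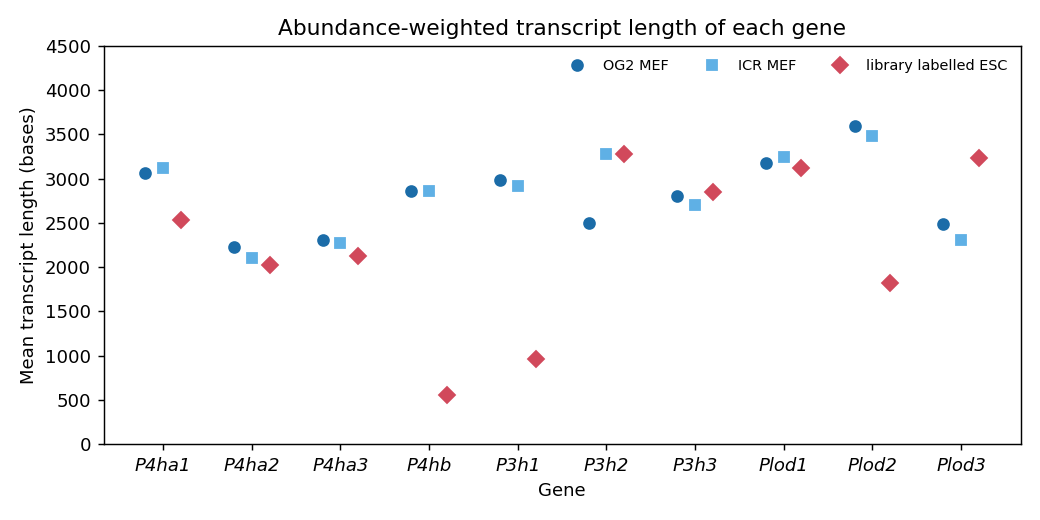
Mean transcript length of each gene in bases, weighted by abundance, as deposited for each library. P4hb stands at 2861 bases in both MEF libraries and at 558 in the library labelled ESC, and P3h1 drops from 2988 and 2915 to 967.

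P3h1 (chromosome 4, 119232915 to 119248975, plus strand), the prolyl 3-hydroxylase that modifies fibrillar collagen in the complex with Crtap and Ppib, had 901 counts in OG2 MEFs, 797 in those of ICR and 40 in the library labelled ESC, or 160, 154 and 28.7 CPM. It was downregulated 5.32-fold, from 7.30 ± 0.037 (SD, n = 2) to 4.89, with an edgeR adjusted p of 1.68e-05. P3h3 (chromosome 6, 124841089 to 124857752, minus strand), which is known to act together with Plod1 and P3h4 in lysine hydroxylation, had 567, 593 and 106 counts, or 101, 115 and 76 CPM. Its difference was -0.49 against an SD of 0.13 in MEFs (n = 2), with an edgeR adjusted p of 0.141.

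P3h2 (chromosome 16, 25959288 to 26105784, minus strand), a prolyl 3-hydroxylase known for basement membrane collagen, was the least abundant of the 10 genes in MEFs, with 40, 37 and 12 counts, or 7.1, 7.16 and 8.61 CPM. Its difference was 0.24 (edgeR adjusted p = 0.436), and the ESC to OG2 ratio of 1.21 had a 95% interval of 0.579 to 2.36. At this depth a change within that interval was not detectable. P3h2 overlaps the antisense gene Gm4524 and the sense intronic gene AU015336. The strand used in counting is not given in the sources used here, and without strand, reads from antisense partners cannot be told apart.

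Within the prolyl 3-hydroxylases, the order of P3h1 and P3h3 by counts was turned round. P3h1 had 59.7% of the family's counts in OG2 MEFs, 55.9% in those of ICR and 25.3% (95% Wilson interval 19.2 to 32.6) in the library labelled ESC. P3h3 had 37.6%, 41.6% and 67.1% (59.4 to 73.9). In deposited TPM, P3h1 kept the larger share with 57.9%, 54.1% and 53%, and with the ESC values at MEF lengths it had 24%. The shift was thus large in counts and small in deposited TPM, in which the ESC value of P3h1 is divided by the shorter length given above.

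Plod2 (chromosome 9, 92542223 to 92608428, plus strand), the lysyl hydroxylase of the collagen telopeptides and so of the most stable cross-links, showed the largest fall of the 10 genes. It had 860 counts in OG2 MEFs, 618 in those of ICR and 6 in the library labelled ESC, or 153, 120 and 4.3 CPM. Its log2 level was 7.09 ± 0.25 (SD, n = 2) in MEFs and 2.41 in ESC, a 25.7-fold fall with an edgeR adjusted p of 5.44e-06. By its difference Plod2 was number 143 from the lowest of 17810 genes. The ESC to OG2 ratio of 0.0282 had a 95% interval of 0.0103 to 0.0616, and the ratio to ICR MEFs was 0.036 (0.0132 to 0.0788). Gm38391 overlaps Plod2 on the opposite strand.

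Plod1 (chromosome 4, 147909753 to 147936767, minus strand), which hydroxylates lysines of the triple helix, had 750, 752 and 112 counts, or 133, 145 and 80.3 CPM. It was called lower by 1.72-fold (edgeR adjusted p = 0.0137), but not with median-of-ratios size factors (adjusted p = 0.0686) nor with DESeq2 (adjusted p = 0.152). Plod3 (chromosome 5, 136987019 to 136996648, plus strand), which also transfers sugars to hydroxylysine, had 1410 counts in OG2 MEFs, 1172 in those of ICR and 317 in ESC, or 250, 227 and 227 CPM. Its difference of -0.067 was smaller than the SD of the MEF samples of 0.10 (n = 2), and it was 0.13 with median-of-ratios size factors. The log2 fold change of the edgeR test was 0.10, opposite in sign to -0.067, with an adjusted p of 0.622. Plod3 overlaps Znhit1 on the opposite strand and Mir702 on its own.

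In the lysyl hydroxylase family, Plod3 had 46.7% of the counts in OG2 MEFs, 46.1% in those of ICR and 72.9% (95% Wilson interval 68.5 to 76.8) in the library labelled ESC. Plod2 had 28.5%, 24.3% and 1.38% (0.634 to 2.98), and Plod1 24.8%, 29.6% and 25.7%. Per length, in deposited TPM, Plod3 had 54.9%, 56% and 71.4%, Plod2 22.6%, 19% and 2.48%, and Plod1 22.5%, 25% and 26.2%. The share of Plod2 was lower and that of Plod3 higher in ESC than in either MEF sample by both measures. That of Plod1 in ESC lay between the MEF samples in counts, above both in deposited TPM and below both, at 20.3%, at MEF lengths.

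Compared per length in deposited TPM, P4hb, Plod3, P4ha1 and P3h1 were the 4 most abundant of the 10 genes in every library and in this order. In the library labelled ESC, P4hb had 1142 TPM, Plod3 52.2, P4ha1 51 and P3h1 24.7, so that Plod3 and P4ha1 stood side by side. Plod2 and P3h2, with 1.81 and 1.94 TPM, came last. The place of P3h1 in ESC rests on its short length there: at MEF lengths it had 7.3 TPM, below P3h3 with 20.9 and Plod1 with 18.7, while P4hb (176), Plod3 (72.4) and P4ha1 (41.7) stayed the first 3. In MEFs the middle of the order was not fixed: P4ha2, Plod2, Plod1 and P3h3 lay between 76.6 and 98.5 TPM in OG2 MEFs and between 77.6 and 102 TPM in ICR MEFs, in another order.

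The unit of the values moved the differences of all genes. The median difference of the genes tested shifted by -1.13 on going from CPM to deposited TPM, which differs in being divided by length and in having no TMM factors. Leaving out the TMM factors alone shifted the CPM median by -0.40. In deposited TPM all 10 genes were lower in the library labelled ESC than in both MEF samples, and 9 of them by at least 1 log2 unit. Of all 17810 genes, 7692 lay at least 1 log2 unit below both MEF samples in deposited TPM, against 4617 in CPM. Relative to the median of the genes tested, P4hb lay at -0.86 in CPM, at 1.41 in deposited TPM and at -1.22 in TPM computed with MEF lengths. Plod2, P4ha2, P4ha3 and P3h1 were lower by at least 1 log2 unit under each of these units.

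**Figure D4:**
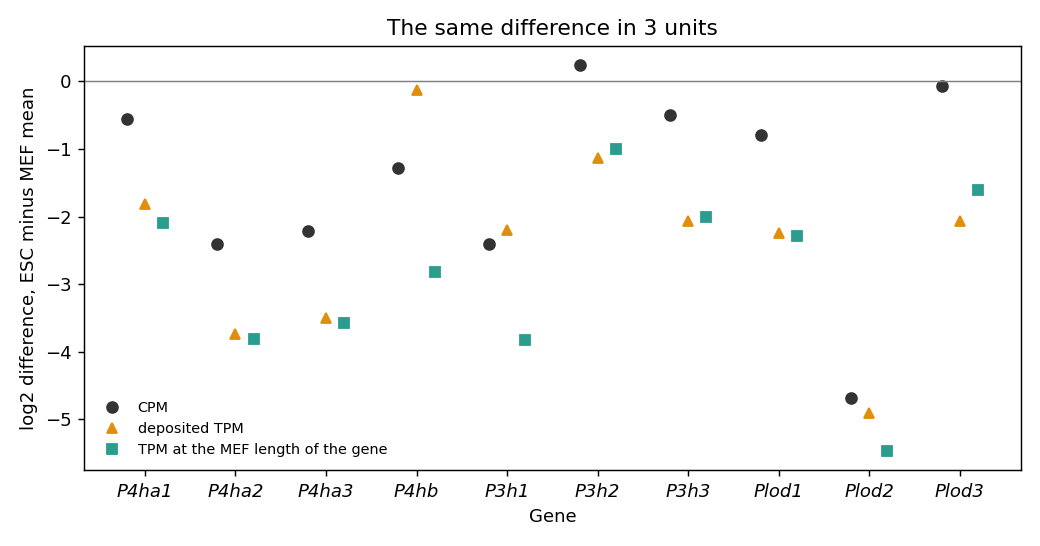
Log2 difference of ESC from the MEF mean for each gene, from CPM, from deposited TPM and from TPM computed with the MEF length of the gene. For P4hb the values are -1.28, -0.13 and -2.82, and for Plod2 they are -4.68, -4.91 and -5.47.

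Between OG2 and ICR MEFs none of the 10 genes was 1 log2 unit apart, against 2.76% of 17810 genes, so that this count is near the background. The median ICR minus OG2 difference was -0.0055. By counting error alone, the interval of the ratio left out 1 for 5 of the 10 genes, against 24.8% of the 12663 genes tested, a share that depends on the depth of each gene. P4ha3 was higher in ICR MEFs with an ICR to OG2 ratio of 1.36 (95% interval 1.17 to 1.59), and P3h3 with 1.14 (1.01 to 1.28). Plod2 was lower with a ratio of 0.783 (0.705 to 0.87), P4ha2 with 0.818 (0.72 to 0.929) and Plod3 with 0.906 (0.838 to 0.98). With 1 sample of each strain these differences have no replicate check. P4hb, at a ratio of 0.985 (0.956 to 1.02), was the most precisely measured.

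The proteins that work beside the hydroxylases were set beside them from a list of 18 genes for procollagen folding and export. Of these, 17 were tested, 2 were called higher and 12 lower, with a median difference of -1.28. Over all genes tested, 31.4% were called higher and 36.0% lower, with a median of -0.41. Crtap and Ppib, the partners of P3h1, did not pass the test: Crtap had 167, 165 and 155 CPM (edgeR adjusted p = 0.711) and Ppib 382, 341 and 414 CPM (adjusted p = 0.0948). In CPM, P3h1 was low in the library labelled ESC beside partners near their MEF level. In deposited TPM, Crtap and Ppib were also lower in ESC than in both MEF samples, but by smaller factors than P3h1, whose log2 difference was -2.20. The contrast was thus smaller in deposited TPM but still present. The median of the genes tested itself shifted by -1.13 between CPM and deposited TPM. P3h4, the partner of P3h3 and Plod1, was called higher, with 149, 139 and 262 CPM and a difference of 0.86 (edgeR adjusted p = 0.000441), but was lower in ESC in deposited TPM, with 180, 216 and 91.3.

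Serpinh1, the collagen chaperone HSP47, had 2010, 1980 and 823 CPM. In CPM it fell by 1.28 on the log2 scale (edgeR adjusted p = 0.000856), as far as P4hb. In deposited TPM the match was absent, with 1922, 2023 and 264 for Serpinh1 and 1221, 1288 and 1142 for P4hb. Fkbp10, a prolyl isomerase known to assist Plod2, was called higher in counts with a difference of 0.56 (edgeR adjusted p = 0.00484), but in deposited TPM it was lower in ESC, with 445, 422 and 199. Colgalt1, the galactosyltransferase that acts on hydroxylysine, fell from 211 and 228 CPM to 58.1 CPM (edgeR adjusted p = 5.82e-05). The largest falls of the list were Sec24d, a coat protein of procollagen export, with 1219, 1026 and 1 counts, and the prolyl isomerase Fkbp14, with 297, 325 and 9 counts.

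The collagen chains, the substrates, had a lower median difference than the enzymes. Of 23 collagen chain genes, 21 were tested, 2 were called higher and 16 lower, with a median difference of -2.18. The shares over all genes tested were 31.4% higher and 36.0% lower. Their summed counts were 166516 in OG2 MEFs, 171161 in those of ICR and 4467 in the library labelled ESC. The 9 hydroxylases without P4hb summed to 6827, 6107 and 874 counts, so that there were 24.4 and 28 collagen counts for each enzyme count in OG2 and ICR MEFs and 5.11 in ESC. For each P4hb count there were 18.1, 20.6 and 4.79 collagen counts. Col12a1 and Col11a1 had the largest falls, with differences of -5.94 and -5.83, and Col11a2 and Col15a1 the largest rises in counts, with 3.13 and 2.40, although Col11a2 in deposited TPM (0.52, 3.18 and 2.24) lay between the MEF samples. The ratios of counts are not corrected for gene length and were not tested.

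Of 13 genes for vitamin C transport and recycling, 11 were tested, 3 were called higher and 4 lower, with a median difference of -0.65. These counts lie near the shares over all genes tested, 31.4% called higher and 36.0% lower, with a median of -0.41. Slc23a1 and Slc23a2 encode the sodium-dependent ascorbate transporters. Slc23a1 had 2 counts in OG2 MEFs, 0 in those of ICR and 20 in the library labelled ESC (edgeR adjusted p = 0.00051), and Slc23a2 had 136, 134 and 1 counts (adjusted p = 0.000118). The glucose transporters Slc2a1 and Slc2a3 also carry dehydroascorbic acid, the oxidized form. Slc2a1 fell by 2.49 on the log2 scale (edgeR adjusted p = 3.3e-05) and Slc2a3 was called higher in counts by 1.25 (adjusted p = 0.00394), while its deposited TPM was lower in ESC, with 5.95, 7.2 and 3.36. Cyb5r3, a reductase linked to ascorbate recycling, was called higher by 1.47 (edgeR adjusted p = 4.3e-05), with 327, 382 and 307 in deposited TPM, again lower in ESC.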

How the data were processed

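RNA of 2 MEF samples and 1 ESC sample was sequenced. Per the labels and the paper's methods, the RNA was extracted with Trizol and made into TruSeq libraries. The paper describes trimming with TRIMMOMATIC and RSEM with bowtie2 on an Ensembl annotation. The submitters' processing notes name Bowtie, RSEM and mm10. For each library the authors deposited expected counts (estimated read numbers, which RSEM divides among matching genes), TPM, FPKM, and a gene length and effective length in bases. The deposited FPKM were not tested, since they are proportional to TPM within a library. The paper also names a normalization for GC content, and the expected counts were treated as not yet corrected by it.

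Expected counts were rounded, scaled by TMM and tested with the quasi-likelihood test of edgeR 4.0.16 (R 4.3.3) after its filter on low counts. The edgeR step scaled the genes it tested anew, which moved the fold changes of the 10 genes by a median of 0.16 against the printed differences. The test was also run on counts simulated from the MEF levels, with few genes changed and with the MEF spread given to ESC. Because of this setting, it cannot check the scaling when many genes differ, nor an ESC spread unlike that of MEFs. Intervals are Wilson intervals for shares and exact (Clopper-Pearson) for ratios, at 95%. Alternatives were size factors by the median of ratios, pseudocounts of 0.1 and 5, deposited TPM, full-quantile normalization (limma 3.58.1), GC-content correction over 20 bins, no filter or at least 10 counts, DESeq2 1.42.0, other length scalings, and each MEF sample left out. TPM at MEF lengths and a GC and then length correction were chosen after seeing the data, as were CPM without TMM factors. Python 3.11.15 with scipy 1.17.1, pandas 2.3.3 and numpy 2.4.6 gave the other values. Symbols, positions and transcripts are from GENCODE M21 on GRCm38, joined by identifier (98.3% of genes matched), which may not be the release behind the counts. Transcript bounds rest on that match.

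The 10 genes and the 11 lists were chosen with earlier results of these data known. Named besides the 10 are set members of the folding and vitamin C lists, the HIF prolyl hydroxylases with Hif1an, and up to 2 called genes with the largest rise and 2 with the largest fall of a list. The other markers named are those at 0 in ESC.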

Additional observations from a re-analysis of the deposited data

How the results depend on the processing

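The library labelled ESC had 1 sample and the fewest counts, so no spread of its own stands behind any difference, and genes such as P3h2 and Plod2 rest on 12 and 6 counts there. No paired analysis was possible because the labels give no replicate numbers that MEF and ESC samples share and ESC has 1 sample. The count test was not rerun without a MEF sample, since no residual degree of freedom would remain. Except where values show it, the cause of a change was not tested.

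By the count test, 5 of the 10 genes were called lower with median-of-ratios size factors, 8 without the filter and 5 with DESeq2. Calls over all genes moved too. Lower were 4126 of 12663 with median-of-ratios size factors and 5166 of 17810 without the filter, against 4563 of 12663 in the main test. Without the filter, P4ha1 (adjusted p = 0.0116) and P3h3 (0.0294) were called lower. The edgeR log2 fold change of Plod3, 0.10 in the main test, changed sign to below 0 without the filter (adjusted p = 0.782). Of the 17810 genes given to DESeq2, 2911 were called lower in all. DESeq2 called 6 other 2-oxoglutarate oxygenases higher and 0 pluripotency markers lower, and 1 leukocyte marker was called lower without the filter. At least 1 log2 unit below both MEF samples lay 9 of the 10 genes with deposited TPM and 9 with TPM at MEF lengths, and of all genes 7692 and 7806. Above both lay 1624 and 1529, against 3900 in CPM. Genes 1 log2 unit apart between the MEF samples numbered 3608 with a pseudocount of 0.1, 103 with 5 and 1107 with TPM.

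The log2 differences of P4ha2, P4ha3, P4hb, P3h1, P3h3, Plod1 and Plod2 stayed below 0 under every alternative, with ranges of -3.81 to -2.15, -3.58 to -1.88, -2.82 to -0.13, -3.83 to -2.20, -2.06 to -0.30, -2.29 to -0.59 and -5.47 to -3.91. P4ha1 came to 0.15 with the GC and length correction. P3h2 came to -1.14 with TPM, -0.17 with the GC and length correction and -1.0 with TPM at MEF lengths. Plod3 came to 0.13 with median-of-ratios size factors and ranged from -0.14 to 0.0036 with a MEF sample left out, the higher value without OG2. The median of the other 2-oxoglutarate oxygenases was 0.23 with the GC and length correction, and that of the leukocyte markers was 0.25 with full-quantile normalization and -0.62 to 0.22 with a MEF sample left out.

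The share of P4ha1 in its family, ESC minus MEF mean, was 29.1 percentage points in TPM, 23.4 in counts and 27 at MEF lengths. That of P3h1 was -3.02 in TPM, -5.87 per deposited length, -32.5 in counts and -32 at MEF lengths (-4.93 to -1.11 in TPM with a MEF sample left out). That of Plod3 was 15.9 in TPM, 26.5 in counts and 23.3 at MEF lengths. The alpha to P4hb ratio differed by -0.217 in TPM and -0.201 per deposited length, but by 0.0482 in counts and 0.0237 at MEF lengths.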

Other observations

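Other oxygenases that use 2-oxoglutarate did not move one way. Of 33 listed genes, 31 were tested, 11 were called higher and 12 lower, with a median log2 difference of -0.56. This is near all genes tested, of which 31.4% were called higher and 36.0% lower, with a median of -0.41. Among the HIF prolyl hydroxylases, which mark the hypoxia-inducible factor for degradation, Egln1 fell from 63 and 58 CPM in OG2 and ICR MEFs to 21.5 CPM in the library labelled ESC (edgeR adjusted p = 0.000867). Egln2 rose from 54 and 53.8 to 197 CPM (adjusted p = 4.54e-06) and Egln3 from 11.9 and 10.6 to 46.6 CPM (adjusted p = 9.75e-05). In deposited TPM these rises were smaller, with 56, 61.1 and 71.1 for Egln2 and 9.59, 9.18 and 13.1 for Egln3. Hif1an, the asparaginyl hydroxylase of the same factor, had 66.9, 54.8 and 40.9 CPM and did not pass the test (edgeR adjusted p = 0.139). The largest changes of the list were rises of Ogfod2 (3.10) and Alkbh1 (2.99) and falls of the histone demethylases Kdm4a (-3.99) and Kdm4c (-3.88).

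A hypoxia list of 22 genes held genes induced by low oxygen, and also Hif1a and other subunit genes of the hypoxia-inducible factor. Of these, 21 were tested, 3 were called higher and 12 lower, with a median of -1.49. The summed level of the list did not fall, with 5045 and 4642 CPM in OG2 and ICR MEFs and 5664 CPM in ESC. Among all genes tested, 31.4% were called higher and 36.0% lower, with a median of -0.41. Ankrd37 rose from 8 and 11 counts to 42 (edgeR adjusted p = 4.78e-05), and Adm, which encodes adrenomedullin, went from 277 and 295 counts to 1 (adjusted p = 1.21e-05). Hif1a itself fell from 279 and 266 CPM to 22.2 CPM (edgeR adjusted p = 2.51e-06). Of 18 genes for protein folding in the endoplasmic reticulum, 3 were called higher and 12 lower, with a median of -1.38, beside the same shares over all genes. The disulfide isomerases Pdia4 and Txndc5, relatives of P4hb, had the largest falls, with differences of -4.03 and -3.20 against -1.28 for P4hb. Manf and Erp29 were called higher in counts by 1.00 and 0.69, but in deposited TPM both were lower in ESC, with 500, 489 and 257 for Manf and 222, 212 and 175 for Erp29.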
